A study of Mus musculus with 4 samples.

Results

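The miRNAs described here are 5 members of the miR-15/16 group of cell-cycle miRNAs, namely mmu-miR-15a, mmu-miR-15b, mmu-miR-16, mmu-miR-195 and mmu-miR-497, measured in mouse embryonic fibroblasts (MEFs) with and without the kinase gene Lats2. They were taken by name, 5 of the 650 miRNA names on the array, with every probe on all 4 arrays. The knockout (KO) MEFs were Lats2-/- and the wild-type (WT) MEFs came from littermates, all of strain C57BL/6J, and none of the cultures was treated. The KO arrays held 1 clone at population doubling level (PDL, taken as the meaning of that label) 70 and 96, and the WT arrays held 1 other clone at PDL 68 and 90. All cultures grew in DMEM with fetal bovine serum, and the total RNA of each culture was labelled with Cy3 and put on an Agilent mouse miRNA array of its own. With 1 clone per genotype, an effect of Lats2 and a difference between clones cannot be told apart, and the p-values measure only the spread between cultures of a clone.

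The miR-15/16 group is known for slowing entry into the cell cycle. Its miRNAs lower the amounts of D-type and E-type cyclins and their partner kinases, and of the survival protein BCL2, by pairing through the seed, the bases just inside the 5′ end, with sites in the target mRNAs. In human chronic lymphocytic leukaemia the locus of miR-15a and miR-16 is often deleted, and in the mouse heart miR-195 is known for restraining cardiomyocyte division after birth. LATS2 is a kinase of the Hippo pathway that also acts at the G1/S checkpoint, and the comparison asks how the abundance of these miRNAs differs in MEFs that lack it.

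All 5 members carry the same bases 2 to 8, and the sequences are shown because this shared seed defines the group while the bases after it are what the array probes can tell apart. The mature sequences, credited to RefSeq (GRCm38.p6), run 5′ to 3′ with bases 2 to 8 in capitals.
miR-15a: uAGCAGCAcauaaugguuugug
miR-15b: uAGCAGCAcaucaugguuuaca
miR-16: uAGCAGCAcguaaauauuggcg
miR-195: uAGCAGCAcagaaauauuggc
miR-497: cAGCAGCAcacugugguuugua
miR-322, the other miRNA on the array with this seed: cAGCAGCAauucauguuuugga
Of the 1679 mature mouse names in that table, 10 (0.596%) share these bases, and 6 of the 10 were on the array. Counted from the 5′ end with no gap, miR-15a and miR-15b differ at 4 of 22 positions, all after base 8 (A12C, G20A, U21C and G22A). miR-16 and miR-195 differ at only 2 of the 21 positions they share, G10A and U11G. miR-16 and miR-497 are the least alike of the 10 pairs, with 11 of 22 positions different.

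The 5 miRNAs come from 3 genomic sites, each with a pair of hairpins close together. On mm9, the build of the array design, the probes for miR-15a lay at chr14:62250879-62250899 on the minus strand and those for miR-16 at chr14:62250736-62250753, with 125 bases between them. The second copy of miR-16 lay at chr3:68813844-68813861 on the plus strand, also 125 bases from miR-15b at chr3:68813700-68813718. miR-497 (chr11:70048235-70048253) and miR-195 (chr11:70048567-70048584) were 313 bases apart on the plus strand. By name in the RefSeq gene table, Mir15a and Mir16-1 lie inside the long noncoding RNA gene Dleu2. Mir15b and Mir16-2 lie inside Smc4, which encodes a condensin subunit. No gene of that table holds both Mir195a and Mir497. A miR-16 probe reads the product of both copies, so its signal cannot be divided between chromosomes 14 and 3.

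Across the arrays, 125 to 161 of the 650 names were well above background. The 75th percentile of the 192 probes well above background on every array was 531 and 562 signal units in KO and 488 and 458 in WT, and each array was scaled to it. All 4 arrays shared 1 slide, with WT at positions 1 and 2 and KO at positions 3 and 4, so slide position and genotype cannot be told apart. Lats2 mRNA is not read by a miRNA array, so the genotype labels could not be checked here. Of 7 fibroblast and mesenchymal miRNAs, 6 were well above background on all 4 arrays, with miR-145 the exception. Of the listed markers of other cell types, miR-206, a muscle miRNA, was the only one above background on any array, at 27.1 to 34.7 scaled signal units. The 2 arrays of each group limit the precision of every value.

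miR-15a, miR-15b and miR-16 were measured on all 4 arrays and were lower in Lats2 KO than in WT MEFs, while miR-195 and miR-497 were not well above background in any culture. In KO the signals of the 3 measured members were 58.4%, 65.8% and 62.6% of WT, in that order, and for each of them both KO arrays lay below both WT arrays. The size of the decrease depended on the scaling, and with median scaling KO minus WT was -1.18 for miR-15a, -1.01 for miR-15b and -1.08 for miR-16 on the log2 scale, while without scaling it was -0.57, -0.40 and -0.47. The miRNAs that fell are those of the 2 sites on chromosomes 14 and 3. The third site, on chromosome 11, gave no signal well above background in these cells.

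miR-15a, from the Dleu2 locus, had log2 signals of 8.42 and 8.55 in KO (PDL 70 and 96) and of 9.27 and 9.25 in WT (PDL 68 and 90). On the linear scale these were 342 and 374 signal units in KO against 616 and 609 in WT. The KO values lay well under the WT values, and each pair of cultures stayed close together. KO minus WT was -0.78 ± 0.07 on the log2 scale (SE, n = 2 per group), with a 95% interval of -1.003 to -0.55 and an adjusted p of 0.0053 in limma. The call held in each of the 4 fits that left out 1 array (adjusted p 0.015 to 0.025 in limma).

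miR-15b, from the Smc4 locus, had log2 signals of 9.27 and 9.54 in KO and of 9.97 and 10.05 in WT. The KO culture at PDL 96 was the higher of the KO pair and still lay below WT. KO minus WT was -0.60 ± 0.12 (SE, n = 2 per group; 95% interval -0.98 to -0.23; adjusted p = 0.029 in limma), the widest interval of the 3. The direction held in every fit that left out 1 array, but the call did not. Without KO replicate 1 the difference was -0.47 (adjusted p = 0.087 in limma), and without KO replicate 2 it was -0.74 (adjusted p = 0.061 in limma). Without WT replicate 1 it was -0.65 (adjusted p = 0.054 in limma) and without WT replicate 2 it was -0.56 (adjusted p = 0.071 in limma).

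miR-16, encoded at both loci, had log2 signals of 9.24 and 9.38 in KO and of 9.94 and 10.03 in WT. Its KO cultures were again below both WT cultures, with a gap larger than the spread within either pair. KO minus WT was -0.68 ± 0.08 (SE, n = 2 per group; 95% interval -0.93 to -0.42; adjusted p = 0.0093 in limma). The call was lost without KO replicate 1 (difference -0.61, adjusted p = 0.070 in limma) and without KO replicate 2 (-0.74, adjusted p = 0.059 in limma), and it was kept without either WT array.

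**Figure D1:**
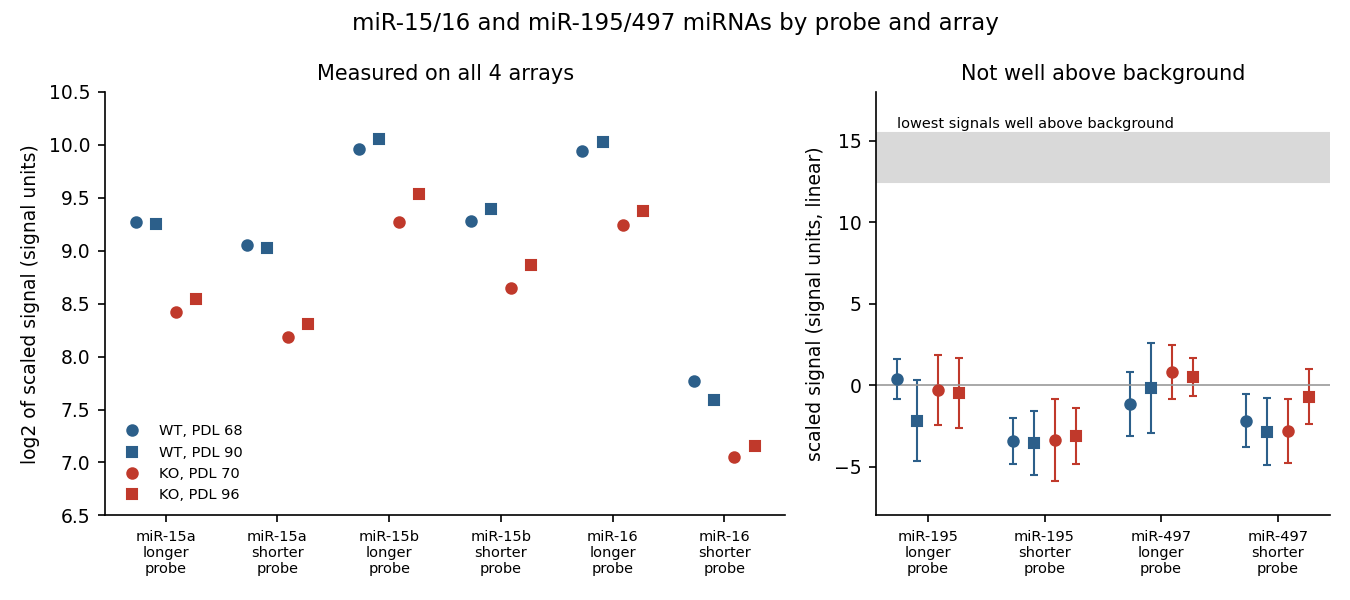
Signal of the 5 miRNAs by probe and array, with WT in blue, KO in red, circles for the lower PDL and squares for the higher PDL. The left axis is the log2 of the scaled signal of miR-15a, miR-15b and miR-16, where both KO arrays lie below both WT arrays for each of the 6 probes; the right axis is the linear scaled signal of miR-195 and miR-497 with the SD between spots, and the grey band spans the lowest signals well above background on the 4 arrays (12.5 to 15.5 signal units).

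Each of these miRNAs had 2 probes of 10 spots, which differ by 1 base in length. Every probe reaches the 3′ end of its miRNA, and at the other end the longer probes start at base 1 of miR-15a, base 3 of miR-15b and base 5 of miR-16. The values above come from the longer probe, and the shorter probe gave a KO minus WT of -0.80 for miR-15a, -0.58 for miR-15b and -0.58 for miR-16 on the log2 scale. For the shorter miR-16 probe the log2 signals were 7.05 and 7.16 in KO and 7.77 and 7.59 in WT, so the groups did not overlap with it either. All 231 spots of the 6 probes that carried no outlier flag were well above background. Between spots of a longer probe on 1 array the coefficient of variation was 2.83% to 14.4%. The 2 probes of a miRNA read the same molecules and are not independent measurements.

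miR-195 and miR-497, which share the chromosome 11 site, had 160 spots in all on the 4 arrays, and 0 of the 156 that carried no outlier flag was well above background. The mean scaled signals of their 4 probes ran from -3.35 to 0.79 signal units in KO and from -3.55 to 0.36 in WT. The lowest signal of any probe that was well above background was 12.5 to 15.5 signal units, depending on the array. Both members were therefore not detectable on these arrays in either genotype, and no fold change can be given for them. This does not show that they were absent from the cells.

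The miR-195 probe bears on how far the related sequences were kept apart. It is shown 5′ to 3′ as printed on the array, with the bases that have no partner in miR-16 in capitals.
miR-195 probe: gccaatatttCTgtgctgc
This probe of 19 bases pairs with miR-16 at 17 of them, and on the same arrays miR-16 gave 605 and 664 signal units in KO and 983 and 1043 in WT on its own probe. The miR-195 probe stayed at -0.28 and -0.50 units in KO and at 0.36 and -2.19 in WT. So a bright miR-16 gave no signal well above background on a probe with 2 unpaired bases. The miR-15a probe has 4 bases without a partner in miR-15b, as has the miR-15b probe in miR-15a, and signal shared between those 2 miRNAs was not tested. The longer miR-497 probe leaves 4 bases unpaired with miR-15a and was not well above background where miR-15a was bright.

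Over all miRNAs, 159 were tested, namely those well above background on both arrays of a group, and 92 (57.9%) were called at an adjusted p under 0.05 in limma. Of these, 23 (14.5% of the 159) were lower in KO and 69 were higher. Among the 115 well above background on all 4 arrays, as miR-15a, miR-15b and miR-16 were, 21 were called lower and 39 higher. Of the 5 members, 3 passed the filter, through both groups, and all 3 were called lower. Both KO arrays lay below both WT arrays for 19.5% of the 159 and for the 3 members that passed. The balance of calls moved with the scaling, with 43 of 93 lower after quantile normalization, 36 of 74 with median scaling, 28 of 71 with the total signal per miRNA and 15 of 107 without scaling. The count of calls fell to 39 without KO replicate 1 and to 37 without KO replicate 2, and 6 of them were lower in either fit.

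The median KO minus WT over the 159 was 0.31 on the log2 scale, and the scalings moved it between -0.09 and 0.52. Relative to that median, miR-15a was at -1.09, miR-15b at -0.91 and miR-16 at -0.98. In order of decrease, miR-15a was number 12, miR-16 number 15 and miR-15b number 17 of the 159. Relative to the median in each setting, miR-15a stayed between -1.17 and -0.78, miR-15b between -1.07 and -0.60 and miR-16 between -1.10 and -0.68. These ranges hold over the reported setting and 18 alternatives, leaving out the percentile over all probes, which gave no usable scale.

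**Figure D2:**
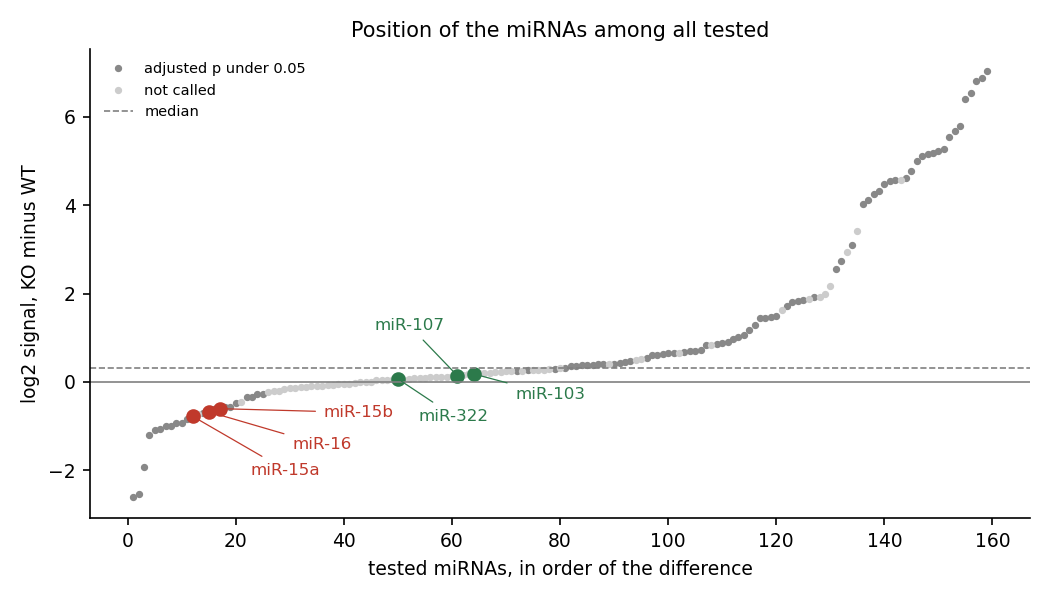
KO minus WT in log2 signal of the 159 tested miRNAs, in order of the difference, with dark points called at an adjusted p under 0.05. miR-15a, miR-15b and miR-16 (red) lie among the 17 strongest decreases, and miR-322, miR-103 and miR-107 (green) lie between 0 and the median of 0.31 (dashed).

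Next, the sizes of the decreases were compared between members within each array, a ratio that dividing an array by a constant leaves as it is. Quantile normalization, which is no such division, moved the difference between miR-15a and miR-16 to -0.18. The log2 ratio of miR-15a to miR-16, neighbours on chromosome 14, was -0.82 and -0.83 in KO and -0.67 and -0.78 in WT, a KO minus WT of -0.10 on the log2 scale. For miR-15b and miR-16, neighbours on chromosome 3, the ratio was 0.03 and 0.16 in KO and 0.02 and 0.03 in WT, a difference of 0.07. For miR-15a and miR-15b it was -0.85 and -0.99 in KO and -0.70 and -0.80 in WT, a difference of -0.17. The exact permutation test gave p = 0.333 for each of the 3 pairs (two-sided, n = 2 per group; adjusted p = 0.333), which is the smallest p that 2 against 2 arrays allow. Single arrays weighed heavily on these values. Leaving out KO replicate 1 gave 0.14 for miR-15b and miR-16, and leaving out KO replicate 2 gave 0.0054. That for miR-15a and miR-16 was -0.05 without WT replicate 1 and -0.15 without WT replicate 2, and that for miR-15a and miR-15b was -0.10 without KO replicate 2. These differences between members were smaller than their decreases of 0.60 to 0.78. Without scaling, KO minus WT ran only from -0.57 (miR-15a) to -0.40 (miR-15b), while the ratios stayed as they were. With these longer probes the KO ratios did not overlap the WT ratios in each pair. For miR-15b and miR-16 the closest values were 0.031 in KO and 0.027 in WT. With the shorter probes of these 2 miRNAs the ratios overlapped, and both probes gave a KO minus WT of -0.58. The non-overlap thus depended on the probe, and 2 against 2 arrays cannot show whether the decreases differ. The levels themselves were not compared between members, since different probes bind with different strength.

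The passenger strands of the same hairpins were on the array as miR-15a*, miR-15b* and miR-16*, the last of which matches only the chromosome 14 copy. They could have separated the 2 copies of miR-16. None of their 236 unflagged spots, over 12 probes and 4 arrays, was well above background. The mean signals per probe and array ran from -5.83 to 9.28 scaled signal units, so the array gave no locus-specific value for miR-16.

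None of the measured miRNAs with the same or a related seed outside the 5 members was called. miR-322, which has the same bases 2 to 8 and lies next to miR-503 on the X chromosome, had log2 signals of 7.09 and 7.42 in KO and of 7.05 and 7.32 in WT. Its groups overlapped, each with the higher value at the higher PDL. KO minus WT was 0.07 ± 0.18 (SE; 95% interval -0.47 to 0.60; adjusted p = 0.74 in limma). miR-103 and miR-107 begin with the same run of bases shifted by a single position, and are known for regulating insulin signalling. miR-103 had log2 signals of 8.66 and 8.62 in KO and 8.48 and 8.43 in WT (KO minus WT 0.18, adjusted p = 0.075 in limma). miR-107 had 8.53 and 8.56 in KO and 8.41 and 8.40 in WT (KO minus WT 0.14, adjusted p = 0.11 in limma). The sequences of miR-103 and miR-107 are nearly the same, and signal shared between their probes was not tested. miR-322 was not called in any of the 19 settings, where its value ran from -0.33 to 0.28. miR-103 and miR-107 were called higher only without scaling, miR-107 also in the methods' t-test after Benjamini-Hochberg adjustment, and the values of all 3 turned negative under 2 other scalings (the median, or the software's total signal), that of miR-322 also after quantile normalization. miR-503 and miR-1907 were not well above background, and miR-424 and miR-646 were not among the names analysed. The difference between these miRNAs and the members was not tested.

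**Figure D3:**
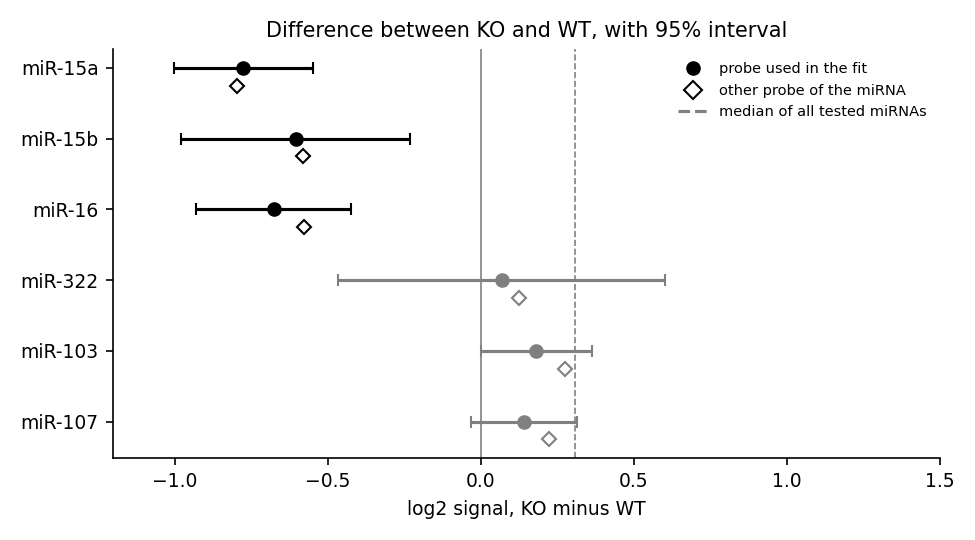
KO minus WT in log2 signal with the 95% interval from limma for miR-15a, miR-15b and miR-16 (black) and for miR-322, miR-103 and miR-107 (grey), with the second probe of each miRNA as a diamond. The intervals of the first 3 lie below 0 (the highest bound is -0.23), those of the last 3 include 0, and the dashed line is the median of all tested miRNAs.

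The profiles most like those of the members over the 4 arrays were sought among the other 156 tested miRNAs, by the root mean square difference of log2 profiles centred on their own means. For miR-15a they were let-7i (0.043), miR-24 (0.061) and miR-23b (0.085). For miR-16 they were let-7i (0.028), miR-23b (0.068) and miR-125b-5p (0.079). For miR-15b they were miR-23b (0.074), let-7i (0.084) and miR-27b (0.093). let-7i belongs to the let-7 family, known for repressing growth genes in many tissues, and it fell by 0.71 on the log2 scale (adjusted p = 0.0052 in limma). miR-24 fell by 0.84 (adjusted p = 0.0084 in limma), miR-23b by 0.61 (adjusted p = 0.013 in limma), miR-27b by 0.57 (adjusted p = 0.034 in limma). miR-125b-5p fell by 0.56 (adjusted p = 0.0060 in limma). Likeness over 4 arrays rests mostly on the difference between KO and WT, and it is a description only.

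**Figure D4:**
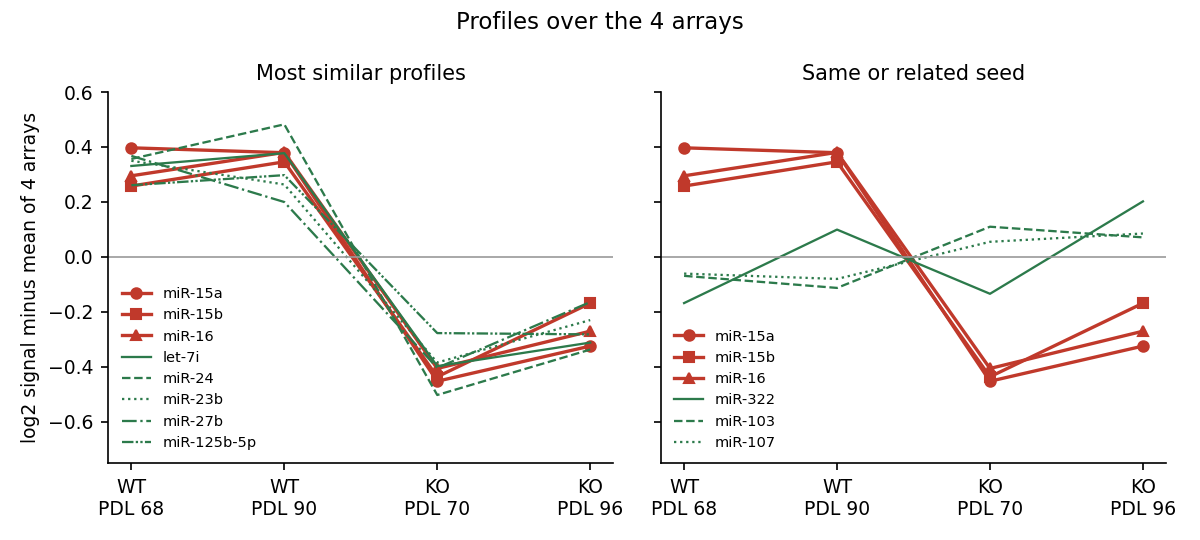
Log2 signal on each array minus the mean of the miRNA over the 4 arrays, with lines that only join the values of a miRNA. Left, miR-15a, miR-15b and miR-16 (red) with the 5 miRNAs of most similar profile (green); right, the same 3 with miR-322, miR-103 and miR-107, where the KO arrays do not both lie below both WT arrays.

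Other miRNAs with known roles in the cell cycle were called in both directions. Among 18 listed as restraining it (the let-7, miR-34 and miR-26 families, miR-24 and miR-145), 15 were tested, of which 6 were called higher, 2 lower and 7 were not called. The share called was 53.3% and the share lower 13.3%, near the 57.9% and 14.5% over all tested. The median KO minus WT was 0.31 over all tested and 0.17 over the 115 well above background on all 4 arrays. That of this list was 0.0020, and the list ran from miR-24 (-0.84) to let-7c (1.07). Its 2 lower members were let-7i and miR-24, while let-7b, let-7c, miR-98, miR-34a, miR-34b-5p and miR-34c were the 6 higher. Among 14 listed as promoting the cell cycle, 12 were tested, with 6 called higher, 5 lower and 1 not called, so that 91.7% were called and 41.7% were lower. That median was 0.08, from miR-222 (-1.001) to miR-20a (0.46). The 6 higher miRNAs were miR-18a, miR-19a, miR-19b, miR-20a, miR-20b and miR-92a. The 5 lower ones were miR-221, miR-222, miR-25, miR-93 and miR-106b. These counts depended on the scaling, while miR-15a and miR-16 stayed called under each of the same scalings. With median scaling the promoting list had 0 higher and 6 lower calls and the restraining list 2 higher and 5 lower, and miR-18a, miR-19b and miR-92a turned slightly negative. With the total signal per miRNA they had 0 higher and 5 lower, and 4 higher and 5 lower.

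The cultures of each genotype also differed in PDL, and the higher PDL was compared with the lower in a fit with genotype as a covariate. For miR-15b the higher minus lower PDL was 0.18 ± 0.09 on the log2 scale (SE), for miR-16 it was 0.11 ± 0.07 and for miR-15a it was 0.06 ± 0.09, with adjusted p-values of 0.83, 0.83 and 0.89 in limma. In KO all 3 were higher at PDL 96 than at PDL 70, by 0.13 (miR-15a), 0.27 (miR-15b) and 0.14 (miR-16). In WT miR-15b and miR-16 were higher at PDL 90 than at PDL 68, by 0.09 each, and miR-15a was not, at -0.02. The rise in WT came with the scaling, since the unscaled signals at PDL 68 and 90 were 957 and 955 units for miR-15b. For miR-16 they were 941 and 937 units. The shorter probe, after scaling, went from 7.77 to 7.59 for miR-16 and from 9.28 to 9.40 for miR-15b on the log2 scale. None of the 159 miRNAs was called in this fit (0%), and 8 had an unadjusted p under 0.05 in limma. These differences were smaller than those between KO and WT for each of the 3 members. With 1 culture per PDL and genotype, a change with PDL cannot be told apart from the spread between cultures.

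**Figure D5:**
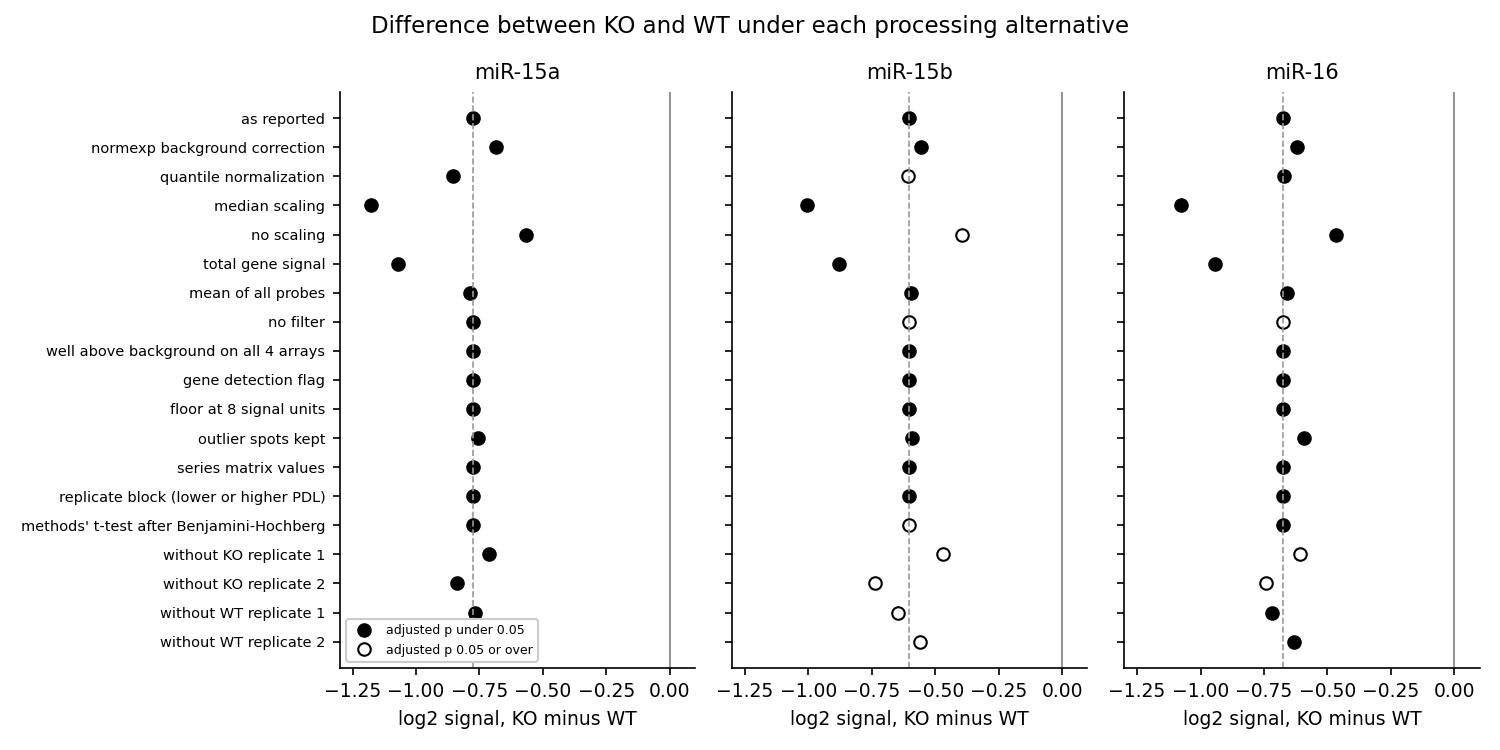
KO minus WT in log2 signal of miR-15a, miR-15b and miR-16 under the reported setting and 18 alternatives, filled where the adjusted p was under 0.05; the percentile over all probes is not drawn. All 57 values lie below 0, miR-15a is filled throughout, and miR-15b is open in 8 alternatives and miR-16 in 3.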

How the data were processed

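The authors scanned 4 single-colour Agilent miRNA arrays (2 KO, 2 WT) with Feature Extraction 10.5.1.1. The deposited files hold, per spot, a background-subtracted intensity in linear signal units with no normalization between arrays, and flags. The deposited series matrix holds the same intensity rounded (at most 0.495% from the scanner value).

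Unflagged spots of a probe were averaged and scaled to a common 75th percentile, taken over the 192 probes that were well above background on every array. Signals were floored at 1 unit before log2 transformation. A probe was well above background where a share over 0.5 of its unflagged spots carried that flag. The probe with the highest mean log2 signal represented a miRNA. Differences were tested with lmFit and eBayes of limma 3.58.1 (R 4.3.3, two-sided, Benjamini-Hochberg over all tested miRNAs), after a check on simulated data. Names are those of the array design. All 5 members matched a RefSeq mature sequence.

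The named miRNAs were the members, their passenger strands, related seeds, the 3 nearest profiles of each tested member and 2 cell-cycle lists. Members and lists were chosen with earlier results of these data known. The alternatives were other background, scaling, summary, filter, floor and test choices, a PDL block and leaving out each array.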

Additional observations from a re-analysis of the deposited data

Results flagged for a closer look

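For miR-15a the change from lower to higher PDL was 0.1279 in KO (PDL 70 to 96) and -0.01782 in WT (PDL 68 to 90) on the log2 scale. The WT signals were 616 and 609 units, with SDs between spots of 22.4 and 43.4, so no direction is read from the WT change. Each value rests on 1 array per PDL and genotype, and the difference between the genotypes was not tested.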

How the results depend on the processing

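The decrease of miR-15a, miR-15b and miR-16 kept its direction in every alternative except the 75th percentile over all probes, where it turned to 4.28, 4.80 and 4.72 (adjusted p = 0.44 each in limma) and 0 miRNAs were called. That percentile lay at the background, between -0.10 and 4.66 signal units, and was negative on WT replicate 1, so it gave no usable scale, and the ratios of miR-15a to miR-15b and to miR-16 moved to -0.52 and -0.44 with it. The call of miR-15b was lost after quantile normalization (-0.61, adjusted p = 0.069), without scaling (-0.40, adjusted p = 0.093), with no filter on dim miRNAs (-0.60, adjusted p = 0.19) and in the methods' t-test after Benjamini-Hochberg (-0.60, adjusted p = 0.094). The call of miR-16 was lost with no filter (-0.68, adjusted p = 0.069), where 650 names shared the adjustment. Quantile normalization moved the ratio of miR-15a to miR-16 to -0.18. The count of called miRNAs was 60 with no filter, 56 in the methods' t-test after Benjamini-Hochberg and 39 in that test with an unadjusted p under 0.05 plus at least a 2-fold change. None of the 3 measured members met this last rule. Their WT over KO folds were 1.71 for miR-15a, 1.52 for miR-15b and 1.60 for miR-16. Except where stated, the causes were not tested. Leaving out 1 array, with the lone array assumed to vary like the other group, gave counts of 37 to 89, differences of -0.84 to -0.71 for miR-15a, -0.74 to -0.47 for miR-15b and -0.74 to -0.61 for miR-16. It gave -0.24 to -0.10 for the ratio of miR-15a to miR-15b, -0.15 to -0.05 for miR-15a to miR-16 and 0.0054 to 0.14 for miR-15b to miR-16. With lower or higher PDL as a replicate block the 3 calls held (adjusted p = 0.024, 0.039 and 0.024 in limma) and 70 miRNAs were called; the replicate numbers pair no samples. A slide or scan block was not run, since all arrays shared 1 slide. For miR-195 and miR-497 no alternative gives a difference, and 0 arrays were well above background with outlier spots kept, by the gene detection flag or, chosen after seeing the data, counting any spot of any probe.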
